A study of Mus musculus with 14 samples.

Results

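The 9 genes described here carry the TGF-beta signal in microglia, the resident macrophages of the central nervous system: the ligand gene Tgfb1, its tether Nrros, the receptor genes Tgfbr1 and Tgfbr2, the signal carriers Smad2, Smad3 and Smad4, the inhibitor Smad7 and the co-repressor Ski. They were taken from the deposited table by gene symbol. All 9 of 9 were found among 14329 genes, and all 9 were among the 12645 tested, for which 7 or more of the 14 libraries had to hold 10 or more reads.

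RNA was sequenced from microglia of the dorsal lumbar spinal cord, sorted as CD45low CD11b+ CX3CR1+ cells at 2000 cells per sample, from 6-month-old mice of both sexes. WT mice were C57BL/6. TASTPM mice are heterozygous transgenic mice that carry, among their transgenes, human APP with the Swedish mutation, driven in neurons by the murine Thy-1 promoter, and serve as a model of Alzheimer's disease amyloid pathology. K/BxN serum transfer (K/BxN ST) gives mice a passive inflammatory arthritis, and Control ST is serum of non-arthritic KRN/C57 mice. The groups held 3 libraries (WT Control ST), 4 libraries (WT K/BxN ST), 3 libraries (TASTPM Control ST) and 4 libraries (TASTPM K/BxN ST). The comparisons ask whether serum, genotype or both moved these genes. The study counts individual mice as replicates, so p-values measure the spread between mice together with that of sorting and library making.

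TGF-beta1 is secreted in a latent complex. On microglia this complex is held at the cell surface by NRROS, also known as LRRC33, and the freed ligand binds TGFBR2, which recruits and activates TGFBR1. TGFBR1 phosphorylates SMAD2 and SMAD3, which enter the nucleus with SMAD4, while SKI represses SMAD target genes and SMAD7 blocks the receptors. In the adult central nervous system this signal is known for keeping microglia in their homeostatic state, with genes such as P2ry12, Tmem119 and Sall1 expressed.

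Whole reads recovered per library ranged from 14223015 to 20239175. Microglia markers were high in every library (1.71 to 6.37% of reads for 10 genes), and neuron and endothelial markers, of which 4 of 7 each were in the table, stayed at or below 0.00398% of reads. Astrocyte markers reached 0.0505%, oligodendrocyte markers 0.0291% and T and B cell markers, 2 of 9 in the table, 0.0516%. Libraries 1 and 2 of WT K/BxN ST and libraries 1 and 2 of TASTPM K/BxN ST stood apart. In these 4 libraries the 10 monocyte markers took 2.28 to 4.36% of reads, against 0.0523 to 0.141% in the other 10 libraries, although the gate of the study was for CD45low cells and left out Ly6C+ and CCR2+ cells. Their microglia markers took 1.71 to 3.99% of reads, against 4.96 to 6.37%. Neutrophil markers took 0.0623 to 1.29% of reads against 0.0243 to 0.0708%, and border macrophage markers 0.0699 to 0.211% against at most 0.0121%. All 10 monocyte markers and all 10 neutrophil markers were listed in the table, of which 6 and 5 passed the filter. Library 3 of WT Control ST had the highest share of red cell markers, at 0.242% of reads. In bulk samples, fewer cells of a type and less RNA per cell cannot be told apart. On a score of log2 Xist less the mean log2 of Y-linked genes they lay at -8.93 to -5.06, while the other 4 K/BxN ST libraries were at -7.55, 10.04, 10.8 and 11.4, so leaving them out also changes the sex balance of K/BxN ST. These 4 are called the monocyte-high libraries, and the main serum values of the members are also given without them.

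The receptor genes and Nrros are the members with the highest levels, so the 250 bases before their annotated starts (GRCm39, GENCODE vM39, gene strand, 5′ to 3′) are shown with each SMAD box, CAGAC or its reverse complement GTCTG, in capitals. The receptor windows are shown because Tgfbr1 and Tgfbr2 varied together over the libraries, and the Nrros window because Nrros ran the other way over the 14 libraries. The windows are chr4:47352884-47353133 (plus strand) for Tgfbr1, chr9:116004801-116005050 (minus strand) for Tgfbr2 and chr16:31984522-31984771 (minus strand) for Nrros.
Tgfbr1: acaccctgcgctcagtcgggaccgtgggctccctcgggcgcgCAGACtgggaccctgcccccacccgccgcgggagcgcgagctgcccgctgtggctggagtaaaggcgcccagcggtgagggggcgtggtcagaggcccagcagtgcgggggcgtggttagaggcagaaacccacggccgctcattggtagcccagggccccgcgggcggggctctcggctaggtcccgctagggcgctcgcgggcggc
Tgfbr2: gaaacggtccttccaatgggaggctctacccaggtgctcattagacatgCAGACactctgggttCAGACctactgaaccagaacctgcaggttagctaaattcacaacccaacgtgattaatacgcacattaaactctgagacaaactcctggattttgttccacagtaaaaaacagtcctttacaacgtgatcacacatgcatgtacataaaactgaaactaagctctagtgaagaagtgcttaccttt
Nrros: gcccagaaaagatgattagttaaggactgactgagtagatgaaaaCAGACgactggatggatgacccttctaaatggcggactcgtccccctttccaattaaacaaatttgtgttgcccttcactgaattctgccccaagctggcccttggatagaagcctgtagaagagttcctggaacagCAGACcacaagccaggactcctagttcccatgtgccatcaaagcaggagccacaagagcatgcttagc

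The Tgfbr1 window held 1 SMAD box and a GC content of 75.2%. The Tgfbr2 window held 2 at a GC content of 42.8%, and overlaps an exon of Gm4668, a long non-coding RNA gene on the opposite strand. The Nrros window held 2 at a GC content of 48.8%. Over the 14267 genes of the table with such a window, 41.7% held at least 1 SMAD box on either strand, so a box is common at this length. Boxes were found for 5 of the 9 members, Smad3 and Smad4 being the other ones. A longer palindromic SMAD element, whose letters are not shown here, was in 0.231% of windows and in that of 1 of the 9 members, Smad7. The PU.1-type core GAGGAA, or TTCCTC on the other strand, was in 22.9% of windows and in that of none of the 9 members. These matches are letters in a window and no measure of binding.

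Levels between genes are compared as normalized counts per kilobase of exon, with the exon length of GENCODE vM39. Tgfbr1 was the highest, with a median of 4003 per kb over 14 libraries (lowest 1176, highest 4705). Tgfbr2 followed at 1283 and Nrros at 836, so the receptors and the tether stood above the ligand. Tgfb1 had a median of 353 and Ski of 334. The signal carriers were lower, with Smad4 at 234, Smad2 at 137 and Smad3 at 94.8, and Smad7 lay between the last ones at 101. Tgfbr1 was above Tgfbr2 in 14 of 14 libraries, Nrros above Tgfb1 in 14 of 14 and Smad4 above Smad2 in 14 of 14. Some neighbours in this order changed rank between libraries: Tgfbr2 was above Nrros in 11 of 14 libraries, Ski above Smad4 in 12 of 14 and Smad2 above Smad7 in 12 of 14. Tgfb1 was above Ski in 4 of 14 libraries and Smad7 above Smad3 in 6 of 14, so the order of these pairs by median did not hold in most libraries. On the normalized count scale, without length, the mean of Tgfbr1 stood at percentile 99.4 of all genes tested, that of Tgfbr2 at 98.5, that of Nrros at 97.3 and that of Smad7 at 59.3.

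**Figure D1:**
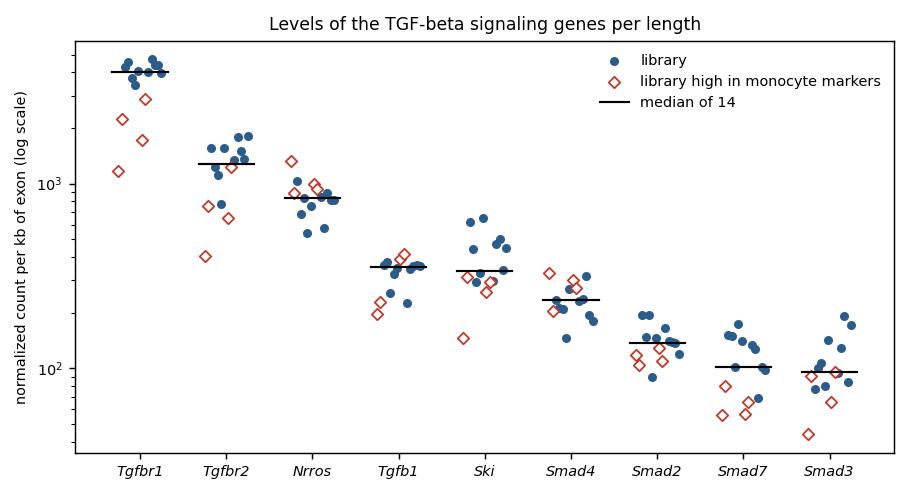
Normalized count per kb of exon (log axis) of each of the 9 genes in the 14 libraries, ordered by the median (line); diamonds are the 4 monocyte-high libraries. Tgfbr1 lies above Tgfbr2 in every library, and the diamonds lie at the low end for Tgfbr1 but not for Nrros or Smad4.

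Among the ligand genes, Tgfb1 (chr7:25386390-25404506, plus strand) encodes TGF-beta1. Its normalized counts were 1824, 1831 and 1821 in WT Control ST, against 1995, 2116, 1148 and 1757 in WT K/BxN ST. In TASTPM they were 1294, 1654 and 1767 under Control ST and 999, 1154, 1847 and 1909 under K/BxN ST. The WT Control ST libraries were nearly equal, and the K/BxN ST values lay on both sides of them. The monocyte-high libraries were the highest values of WT K/BxN ST but the lowest of TASTPM K/BxN ST. The log2 fold change with K/BxN ST, fitted with limma on log2(normalized count + 1), was -0.10 in WT (SE 0.27) and -0.13 in TASTPM (SE 0.27), and -0.36 and 0.27 without the monocyte-high libraries.

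Nrros (chr16:31960320-31984521, minus strand) encodes the tether of latent TGF-beta1. Its normalized counts were 6805, 6232 and 6207 in WT Control ST, against 7608, 7094, 6406 and 4397 in WT K/BxN ST. In TASTPM they were 6329, 4095 and 5792 under Control ST and 10135, 6767, 7849 and 5244 under K/BxN ST. The highest value, in TASTPM K/BxN ST, was in a monocyte-high library, and the groups overlapped in both genotypes. The log2 fold change with serum was -0.037 in WT and 0.46 in TASTPM (95% interval -0.067 to 0.98, limma adjusted p = 0.964), and -0.27 and 0.27 without the monocyte-high libraries. The interaction of genotype and serum was 0.49 on the log2 scale (95% interval -0.25 to 1.23, limma adjusted p = 0.999), so the genotypes were not shown to differ.

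The receptor genes varied more. Tgfbr1 (chr4:47353134-47414931, plus strand) encodes the type I receptor kinase. It had normalized counts of 28998, 28931 and 26250 in WT Control ST, against 11457, 18961, 26768 and 31158 in WT K/BxN ST. In TASTPM the values were 24596, 22618 and 26918 under Control ST and 7791, 14802, 28442 and 30063 under K/BxN ST. The 4 monocyte-high libraries were the lowest of all 14, and the other 4 K/BxN ST libraries lay between 26768 and 31158. Group means were 28060 ± 1567 (SD, n = 3) and 22086 ± 8698 (SD, n = 4) in WT, and 24710 ± 2152 (SD, n = 3) and 20274 ± 10775 (SD, n = 4) in TASTPM. The log2 fold change with serum was -0.44 in WT (95% interval -1.33 to 0.44) and -0.48 in TASTPM (95% interval -1.36 to 0.41). Without the monocyte-high libraries it was 0.043 in WT and 0.25 in TASTPM, so its direction turned.

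Tgfbr2 (chr9:115913361-116004800, minus strand) encodes the type II receptor, which binds the ligand. Its normalized counts were 13166, 11897 and 15828 in WT Control ST, against 5742, 10826, 11738 and 15812 in WT K/BxN ST. In TASTPM they were 9822, 6799 and 13762 under Control ST and 3542, 6646, 13722 and 10799 under K/BxN ST. The lowest library of each K/BxN ST group was a monocyte-high library, and TASTPM Control ST ranged as widely as 6799 to 13762 with no such library in it. The log2 fold change with serum was -0.38 in WT and -0.34 in TASTPM, and 0.0095 and 0.32 without the monocyte-high libraries.

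**Figure D2:**
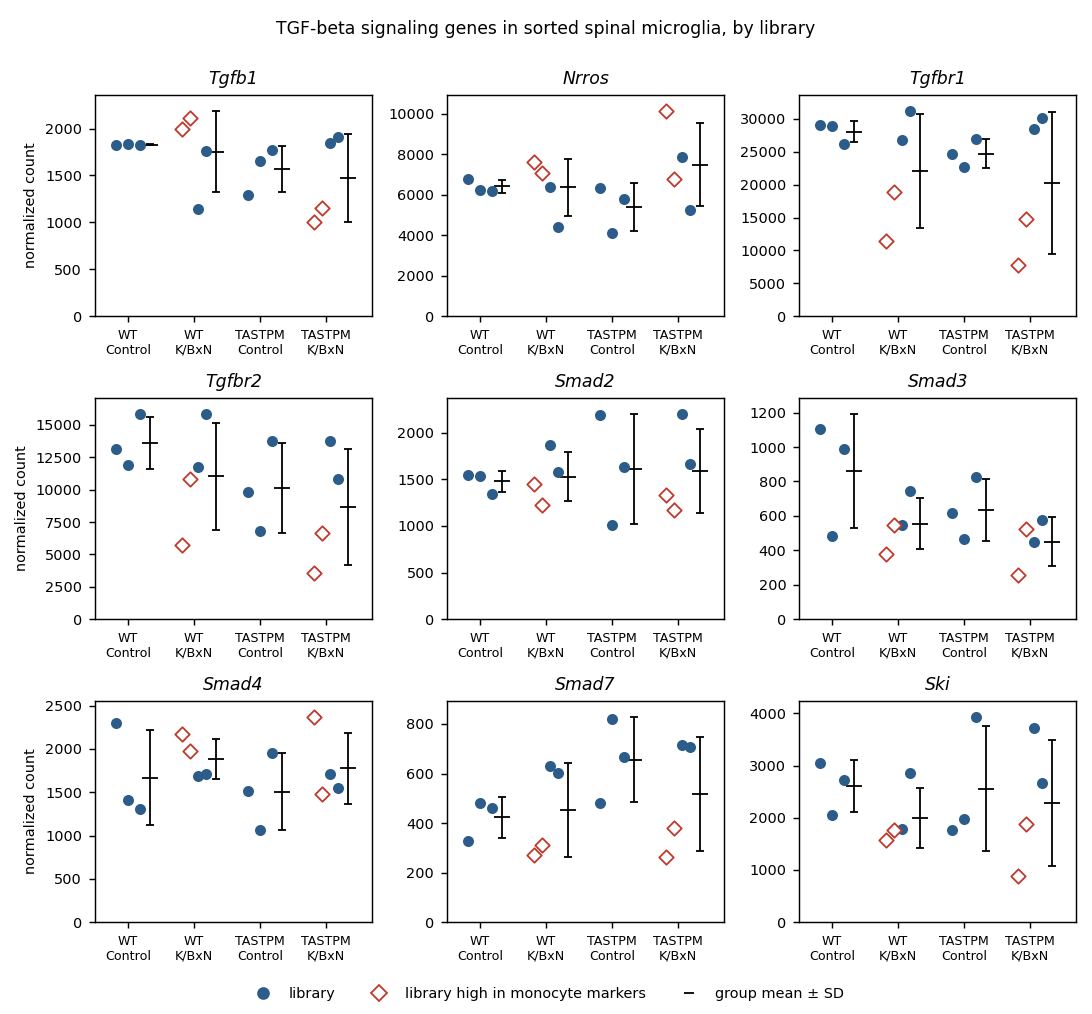
Normalized counts of the 9 genes in each library, by group, with the group mean and SD beside the points; diamonds are the 4 monocyte-high libraries and each y axis starts at 0. For Tgfbr1 the diamonds are the 4 lowest libraries (7791 to 18961), while the other K/BxN ST libraries lie at 26768 to 31158; for Nrros the highest point (10135) is a diamond.

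Set against the summed normalized counts of the 10 microglia markers, the receptor genes of the monocyte-high libraries lay within the range of the other libraries. Tgfbr1 came to 2.77, 2.39, 2.55 and 2.87% of that sum in these libraries and to 2.26 to 3.30% in the other 10. Tgfbr2 came to 1.07 to 1.64% and 0.745 to 1.69%. Ski was at 0.268 to 0.349% inside 0.162 to 0.482%, and Smad3 at 0.0831 to 0.0906% inside 0.0456 to 0.103%. Both of these lay within the range of the other libraries as well. Smad7 came to 0.0471 to 0.0939% against 0.0303 to 0.0901%, Tgfb1 to 0.186 to 0.444% against 0.113 to 0.217% and Smad2 to 0.186 to 0.473% against 0.111 to 0.250%. Nrros did not: it came to 3.60, 1.09, 1.69 and 1.07% in the monocyte-high libraries and to 0.447 to 0.893% in the other 10, with no overlap. The share of all genes with such a gap was not counted. The marker sum was lower in every monocyte-high library, so any gene whose counts did not fall with it rises on this scale. Smad4 overlapped only at the edge, with 0.239 to 0.841% against 0.116 to 0.240%. The microglia markers are themselves genes of the homeostatic state, and the part of other cells in the sort in these values was not tested.

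**Figure D3:**
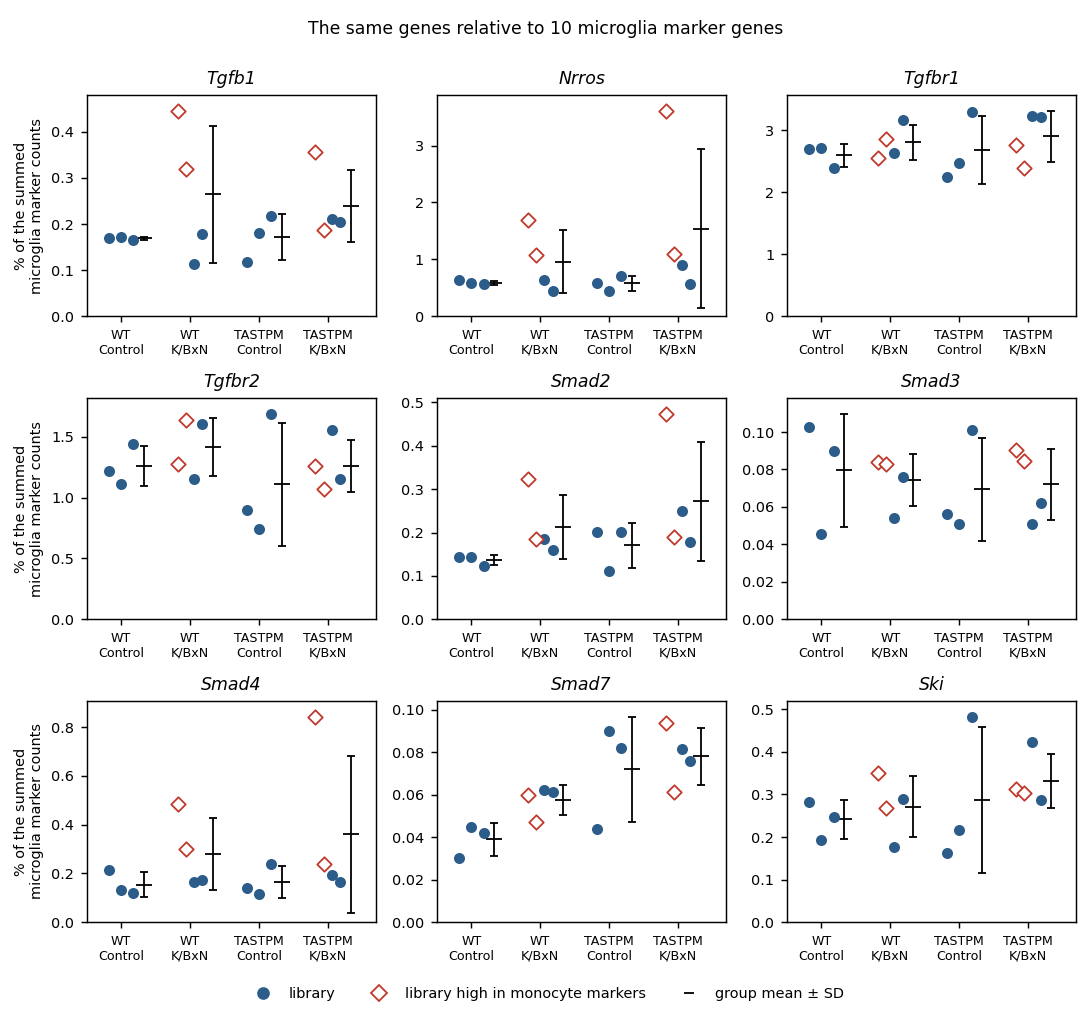
Each gene as a percentage of the summed normalized counts of 10 microglia marker genes, by library and group, with the group mean and SD; diamonds are the 4 monocyte-high libraries. The diamonds lie among the other libraries for Tgfbr1 (2.39 to 2.87%) and above all of them for Nrros (1.07 to 3.60%). The share of all genes with such a gap was not counted.

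Among the signal carriers, Smad3 (chr9:63554049-63665476, minus strand) had the largest serum difference. Its normalized counts were 1106, 486 and 991 in WT Control ST, against 378, 550, 548 and 745 in WT K/BxN ST. In TASTPM they were 615, 465 and 824 under Control ST and 255, 525, 446 and 578 under K/BxN ST. The group means were lower with K/BxN ST in both genotypes, 861 ± 330 (SD, n = 3) against 555 ± 150 (SD, n = 4) in WT and 635 ± 180 (SD, n = 3) against 451 ± 141 (SD, n = 4) in TASTPM, but the groups overlapped. Averaged over genotypes the log2 fold change was -0.55 (95% interval -1.11 to 0.0063), which did not pass the test (limma adjusted p = 0.538). The exact two-sided permutation test within genotypes gave p = 0.0547 over 1225 splits. Without the monocyte-high libraries the averaged value was -0.31 (limma adjusted p = 0.966), and scaled to the microglia markers it was 0.022, beside a median of 0.60 for all genes under that scaling.

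Smad2 (chr18:76374327-76445180, plus strand), the other receptor-activated carrier, stayed between 1013 and 2195 normalized counts over all 14 libraries, with an averaged serum log2 fold change of 0.023 (95% interval -0.39 to 0.43), and of 0.27 without the monocyte-high libraries. Smad4 (chr18:73769343-73836915, minus strand), the partner both need, ranged from 1060 to 2367, and its averaged log2 fold change was 0.24 (95% interval -0.16 to 0.63), and 0.11 without those libraries. The ratio of Smad2 to Smad3 per kb was 0.72, 1.62 and 0.70 in WT Control ST, against 1.98, 1.15, 1.75 and 1.09 in WT K/BxN ST. It was 1.83, 1.12 and 1.02 in TASTPM Control ST and 2.69, 1.15, 2.53 and 1.48 in TASTPM K/BxN ST. Smad2 was thus below Smad3 per length in 2 libraries of WT Control ST and above it in every other library, by up to 2.69-fold. The ratio of Tgfbr1 to Tgfbr2 per kb was steadier, from 2.20 to 4.42 over all 14 libraries, and from 2.33 to 2.96 in the monocyte-high ones.

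Of the inhibitors, Smad7 (chr18:75500374-75529006, plus strand) is itself a SMAD target gene that closes a feedback loop. Its normalized counts were 326, 480 and 461 in WT Control ST, against 269, 312, 631 and 603 in WT K/BxN ST. In TASTPM they were 479, 822 and 668 under Control ST and 264, 379, 715 and 706 under K/BxN ST. The K/BxN ST groups were split, with the monocyte-high libraries at 264 to 379 and the others at 603 to 715. Serum log2 fold changes were 0.021 in WT (SE 0.41) and -0.43 in TASTPM (SE 0.41), and 0.56 and 0.15 without the monocyte-high libraries. As a share of the microglia markers Smad7 was at 0.0303, 0.0450 and 0.0419% in WT Control ST, against 0.0600, 0.0471, 0.0621 and 0.0613% in WT K/BxN ST, so the 2 groups did not overlap on this scale. Smad2 did not overlap on it either, with 0.144, 0.144 and 0.122% against 0.323, 0.186, 0.184 and 0.160%. Such a gap in WT was found for 2 of 9 members and for 11.4% of all genes, and in TASTPM for 0 of 9 members and 6.68% of all genes. The scaled log2 fold change of Smad7 was 0.57 (limma adjusted p = 0.595), close to the shift of 0.60 in the median of all genes under this scaling. Ski (chr4:155238532-155307543, minus strand), the co-repressor, had normalized counts of 3044, 2062 and 2728 in WT Control ST, against 1569, 1771, 1789 and 2850 in WT K/BxN ST. In TASTPM they were 1764, 1985 and 3929 under Control ST, and 881, 1879, 3729 and 2675 under K/BxN ST. The lowest and nearly the highest of all 14 values thus fell in the same group, and the groups overlapped. Ski had serum log2 fold changes of -0.41 in WT and -0.25 in TASTPM, and of -0.19 and 0.40 without the monocyte-high libraries.

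For serum, 0 of the 9 members were called, where a call needs a limma adjusted p below 0.05 and an absolute log2 fold change above 1. Over all 12645 genes that rule called 0.00791% in WT, 0% in TASTPM and 0% averaged over genotypes. Unadjusted p-values below 0.05 were found for 0 of 9 members in each, against 7.13% of all genes in WT, 4.22% in TASTPM and 9.25% averaged. edgeR's quasi-likelihood test and DESeq2 on the recovered reads also called 0 members in each of the 3 serum comparisons. Over all genes DESeq2 called 127 in WT, 16 in TASTPM and 179 averaged, and edgeR 0 in each. Both gave 1 member, Smad3, an unadjusted p below 0.05 in the averaged one, against 9.58% and 11.6% of all genes. K/BxN ST and Control ST did not overlap for 0 of 9 members in WT and 0 of 9 in TASTPM, against 7.38% and 5.41% of all genes. On the log2 scale, the 95% intervals of the members reached down to -1.38 and up to 0.90 in WT, and down to -1.36 and up to 0.98 in TASTPM, so some extended past a 2-fold decrease. The median log2 fold change of the 9 members was -0.21 averaged over genotypes, beside 0.035 for all genes, and 0.11 beside 0.019 without the monocyte-high libraries.

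**Figure D4:**
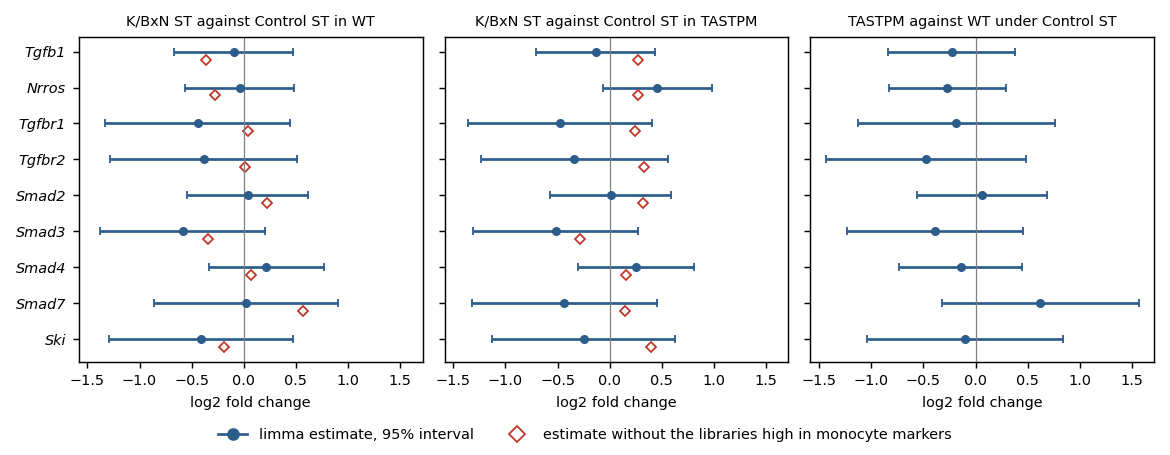
Log2 fold changes of the 9 genes (points, limma on log2(normalized count + 1)) with 95% intervals, for the serum comparison in each genotype and the genotype comparison under Control ST; diamonds are the serum estimates without the monocyte-high libraries. Every interval includes 0, and the diamonds of Tgfbr1 and Tgfbr2 lie on the other side of 0 from their points.

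Genotype was compared under each serum, on libraries that also enter the serum comparisons. Under Control ST no library was monocyte-high, but the score of Xist less Y-linked genes differed between the genotypes. It was -7.15, -3.63 and 3.12 in WT and 11.7, 11.8 and -1.33 in TASTPM, so genotype and sex cannot be fully separated there. Smad7 had the largest difference under Control ST, with 423 ± 84.1 (SD, n = 3) normalized counts in WT and 656 ± 171 (SD, n = 3) in TASTPM. Its lowest TASTPM value, 479, lay just below the highest WT value, 480. The log2 fold change was 0.62 (95% interval -0.32 to 1.56, limma adjusted p = 0.932). Tgfb1 was lower in all 3 TASTPM libraries (1294 to 1767) than in all 3 WT libraries (1821 to 1831), a log2 fold change of -0.23 (limma adjusted p = 0.984) with an exact permutation p of 0.1, the smallest that 20 splits allow. It was the 1 member of 9 whose groups did not overlap, against 9.69% of all genes, so such a gap was about as common among the members as among all genes.

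Tgfbr2 was 13631 ± 2007 (SD, n = 3) in WT and 10128 ± 3492 (SD, n = 3) in TASTPM under Control ST, a log2 fold change of -0.48 (95% interval -1.43 to 0.48). Members called by the limma rule were 0 of 9 under Control ST (0% of all genes) and 0 of 9 under K/BxN ST (0% of all genes), and 0 of 9 for the interaction (0% of all genes). Unadjusted p-values below 0.05 were likewise found for 0 of 9, against 5.57%, 1.91% and 3.04% of all genes. edgeR and DESeq2 called 0 of 9 in these 3 comparisons, with 0 of 9 at an unadjusted p below 0.05. Over all genes DESeq2 called 41 between genotypes under Control ST, 0 under K/BxN ST and 12 for the interaction, and edgeR 0 in each. Unadjusted p-values below 0.05 were found by edgeR for 582, 184 and 329 of 12645 genes and by DESeq2 for 723, 243 and 402, in the same order. Under K/BxN ST the groups of 0 of 9 members were apart, against 1.83% of all genes, with log2 fold changes from -0.43 (Tgfbr2) to 0.22 (Nrros). The interaction ranged from -0.45 (Smad7) to 0.49 (Nrros). Without the monocyte-high libraries the members ranged from -0.33 to 0.48 under K/BxN ST and from -0.42 to 0.63 for the interaction. Negative values were then 3 instead of 5 of 9 under K/BxN ST and 1 instead of 4 of 9 for the interaction.

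Across the 14 libraries Tgfbr1 and Tgfbr2 had a Pearson r of 0.911 on log2 normalized counts, and 0.695 over the 10 libraries that were not monocyte-high. These points share libraries, scaling and depth, so r is a description. Tgfbr1 and Nrros had r = -0.641 over 14 and 0.184 over 10, and Smad7 and Nrros -0.704 and -0.442. With the log2 sum of the microglia markers, Tgfbr1 had r = 0.953 over 14 libraries and 0.016 over 10, and Tgfbr2 0.844 and 0.106. The relation of the receptors to the microglia markers thus rested on the monocyte-high libraries, while that between the receptors was also seen, lower, without them.

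The genes most like each member were taken as the 3 with the highest Pearson r over the 14 libraries. For Tgfbr1 they were Golm1 (0.987, Spearman rho 0.903), Plxdc2 (0.977) and Ptgs1 (0.971), and over the 10 other libraries their r fell to 0.824, 0.580 and 0.536. For Tgfbr2 they were the amino acid transporter gene Slc7a8 (0.991, rho 0.952), Cmtm6 (0.974) and Csf1r (0.973), the receptor gene for the growth factor microglia need. These kept r of 0.977, 0.941 and 0.921 over the 10 libraries. The likeness of Tgfbr2 thus depended less on the monocyte-high libraries than that of Tgfbr1.

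For Smad7 the nearest genes were Pik3r1 (0.962), a regulatory subunit of PI3-kinase, Pag1 (0.946) and Rgs1 (0.929), with r of 0.973, 0.892 and 0.901 over 10. For Nrros they were Gm14438 (0.930), Chek2 (0.923) and Sertad1 (0.911), and for Ski Arvcf (0.941), Fads1 (0.933) and Gnpda2 (0.930). Smad3 was nearest to Fut10 (0.912), Gm15519 (0.903) and Kcnd1 (0.898), and Smad4 to Hgsnat (0.898), Sf1 (0.893) and Hk1 (0.892). Genes nearest to Smad2 included 1700096K18Rik (0.877) and Acbd3 (0.873). Tgfb1 had the weakest likeness, to Kdelr1 (0.867), Scd2 (0.867) and Gm29638 (0.829), with rho of 0.732, 0.516 and 0.386. No member was among the nearest 3 of another.

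The rest of the pathway was described by 7 lists of other genes, of which 0 genes were called in any of the 6 comparisons by limma, edgeR or DESeq2. Tgfb2, Tgfb3, Lrrc32 and Itgb8 were not found by symbol in the deposited table and are not analysed here. In the averaged serum comparison an unadjusted p below 0.05 was found for 9.25% of all genes by limma, 9.58% by edgeR and 11.6% by DESeq2, the shares beside which the counts of each list stand. Limma gave such a p without the monocyte-high libraries to 522 of all 12645 genes, to 1 gene of turnover and inhibition and to 0 genes of the other 6 lists. The lists overlap, since 5 of the immediate target genes (Skil, Smad6, Tgif1, Pmepa1 and Ldlrad4) also stand in the list of SMADs or that of turnover. Of 8 tested genes of ligands and latency, 1 had an unadjusted p below 0.05 in the averaged serum comparison by each tool, and the median averaged log2 fold change was -0.19, against 0.15 without the monocyte-high libraries. Itgb5, an integrin subunit that can activate latent TGF-beta, was the most abundant at 20662 to 70318 normalized counts, with the 4 monocyte-high libraries lowest (20662 to 37971). Thbs1, encoding thrombospondin 1, another activator, had 538 to 3628 in the monocyte-high libraries and 0 to 318 in the others. Its averaged log2 fold change, with 1 WT Control ST library at 0, was 2.50 (limma adjusted p = 0.536), and 1.05 without the monocyte-high libraries.

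Of 10 tested receptors and co-receptors of the wider family, 8 had a negative averaged log2 fold change (6 without the monocyte-high libraries) and the median was -0.39, with an unadjusted p below 0.05 for 2 by limma and for 1 by edgeR and by DESeq2. Acvr1, a type I receptor of BMP and activin ligands, was at -0.60 and Bmpr1a, a BMP receptor, at -0.79, both with a limma adjusted p of 0.536. Without the monocyte-high libraries they were at -0.25 and -0.34, and the median of the list was -0.15. Acvrl1, a type I receptor best known from endothelium, was the most abundant of the list at 867 to 2236 and was at 0.053, and at 0.19 without the monocyte-high libraries. The co-receptor Eng was at -0.41, and 0.11 without the monocyte-high libraries.

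Of 12 tested SMADs and nuclear partners, 6 had a positive and 6 a negative averaged log2 fold change, with an unadjusted p below 0.05 for 3 by each tool, by limma 1 higher and 2 lower. Smad1, a carrier of BMP signals, had 1962 to 2504 normalized counts in WT Control ST and 1365 to 1691 in WT K/BxN ST, without overlap. Its log2 fold change was -0.54 in WT (limma adjusted p = 0.668) and -0.42 averaged, and -0.27 averaged without the monocyte-high libraries. Hdac1, a histone deacetylase of co-repressor complexes, was higher in all WT K/BxN ST libraries (1155 to 2102) than in WT Control ST (871 to 1128), at 0.69 in WT and 0.73 in TASTPM (limma adjusted p = 0.684 and 0.964). Without the monocyte-high libraries these values were 0.51 and 0.23. Groups without overlap in WT were found for 7.38% of all genes, and Smad1 and Hdac1 were named by their small p in that same comparison. Skil, the paralogue of Ski, was at -0.54 averaged and -0.019 without the monocyte-high libraries.

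Of 16 tested genes of turnover and inhibition, 10 had a positive averaged log2 fold change, with a median of 0.073 (0.15 without the monocyte-high libraries) and an unadjusted p below 0.05 for 2 by limma and edgeR and 4 by DESeq2. Pmepa1, a target and inhibitor of the pathway that sequesters receptor-activated SMADs, was the most abundant, at 2442 to 5620 normalized counts in the monocyte-high libraries and 5730 to 8043 in the others. Strap, which with SMAD7 holds the receptor inactive, was at 0.49 averaged (limma adjusted p = 0.536), and at 0.23 without those libraries. Stub1, a ubiquitin ligase, was at 1.00 in TASTPM (limma adjusted p = 0.964), and at 0.80 without those libraries. Of 8 tested genes of the TAK1 arm, the SMAD-independent kinase branch, the averaged values had a median of 0.12 and an unadjusted p below 0.05 for 0 by limma and edgeR and 1 by DESeq2, with Map3k7, TAK1 itself, at 0.13.

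Of 12 tested immediate target genes, 6 had a positive and 6 a negative averaged log2 fold change, with an unadjusted p below 0.05 for 2 by limma and for 3 by edgeR and by DESeq2. Tgfbi, a matrix protein induced by TGF-beta in many cells and also high in monocytes, had 6177 to 15335 normalized counts in the monocyte-high libraries and 251 to 2286 in the others. Its averaged log2 fold change of 1.87 (limma adjusted p = 0.530) became 0.49 without those libraries. Tgif1, a SMAD co-repressor, was at -0.72 in TASTPM and -0.15 in WT, and Junb, an AP-1 gene, at 0.72 in TASTPM and -0.11 in WT (limma adjusted p in TASTPM 0.964 for both). Without the monocyte-high libraries Tgif1 was at -0.44 and -0.030, and Junb at 0.69 and -0.33.

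The 24 homeostatic genes of microglia known to depend on TGF-beta were the most one-sided of the lists. With K/BxN ST averaged over genotypes, 23 of 24 had a negative log2 fold change, with a median of -0.45 beside 0.035 for all genes and an unadjusted p below 0.05 for 5 by limma and DESeq2 and 4 by edgeR. Of the 5 by limma, 4 were lower and 1, Egr1, was higher. Fcrls was at -0.76, Gpr34 at -0.81 and P2ry12, the purinergic receptor of homeostatic microglia, at -0.69, each with a limma adjusted p of 0.536. Egr1, an immediate-early gene, was the exception at 2.74, with values of 0 to 636 within WT Control ST, whose mean of 212 lay close to the 237 of WT K/BxN ST. Without the monocyte-high libraries 11 of 24 were negative, with a median of 0.019, and Fcrls, Gpr34 and P2ry12 were at -0.22, -0.27 and -0.22. The list holds the 10 microglia markers used above. Of its other 14 genes, 13 were negative with all libraries and 4 without the monocyte-high ones. Sall1, a transcription factor of microglial identity, was at -0.74 in TASTPM and -0.071 in WT, and at -0.040 and 0.32 without the monocyte-high libraries.

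**Figure D5:**
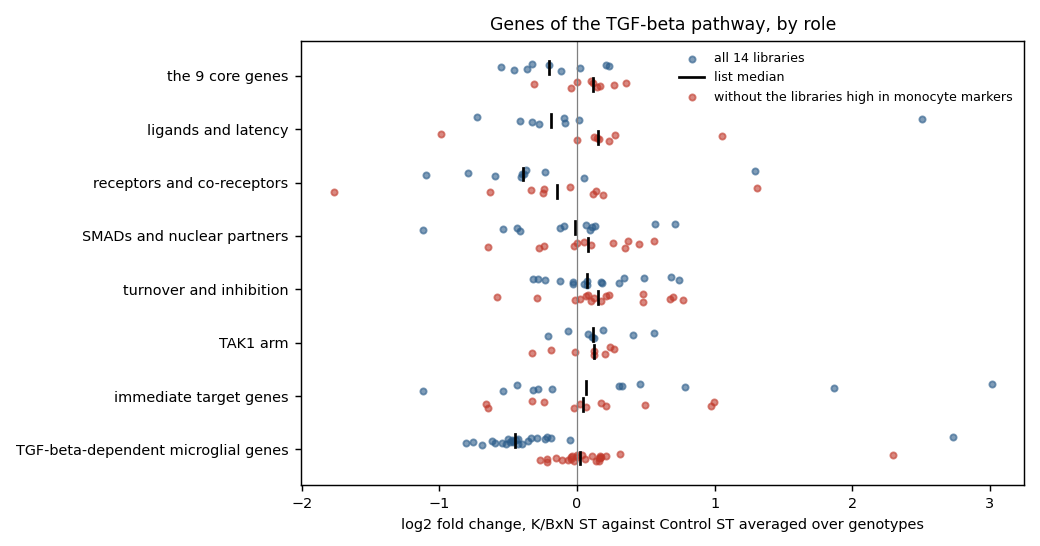
Log2 fold changes with K/BxN ST averaged over genotypes for each tested gene of 8 lists (points) with list medians (bars), with all 14 libraries (upper row of each list) and without the 4 monocyte-high libraries (lower row). The median of the TGF-beta-dependent microglial genes moves from -0.45 to 0.019, and that of the receptors and co-receptors from -0.39 to -0.15.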

How the data were processed

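Per the labels and the study's methods, the authors aligned paired-end reads with HISAT2 2.1 to GRCm39, counted them per gene with featureCounts 1.5.2, and scaled the counts with DESeq2. The deposited values are a signal per gene and library: the authors' read counts divided by 1 size factor per library. Divided by what 1 read is worth in its library, 100% of the values came out whole to within 0.1 of a read, so whole reads were recovered. The table held 14336 rows, and 7 repeated identifiers were left out. The 9 members and all gene lists were chosen with earlier results of these data known.

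Genes with 10 or more reads in 7 or more of the 14 libraries were tested with limma 3.58.1 (trend, 4 groups in 1 model) on log2(value + 1), with Benjamini-Hochberg adjustment over 12645 genes. A fold change on this scale understates the change of low genes, and where a library is at or near 0 it can exceed the ratio of the group means. Calls needed an adjusted p below 0.05 and an absolute log2 fold change above 1. Single members were also tested by an exact two-sided permutation test over libraries. edgeR 4.0.16 and DESeq2 1.42.0 on the recovered reads, TMM scaling, a pseudocount of 10, no filter on low counts, marker and sex-linked covariates, leaving out the monocyte-high libraries or each library in turn, and, chosen after seeing the data, scaling to 10 microglia markers were the alternatives. Monocyte-high means over 3 times the summed monocyte marker reads of the highest Control ST library. Named genes were the members, the 2 most abundant and the 2 with the smallest p of each list in each of 5 comparisons (all but that of the genotypes under K/BxN ST), and the 3 nearest genes of each member by Pearson r; of the list genes, the text names some, chosen after their values were seen. Table columns of 3 groups show the group but not the sample, so their library numbers only name columns in table order. Windows before gene starts were read from GRCm39 with GENCODE vM39, while the study's annotation was Ensembl 104. Counting is not known to have used strand, so reads of Tgfbr1, Tgfbr2 and Nrros cannot be told from those of antisense genes that overlap 61, 443 and 510 of their exon bases. Some items, a transgene of the TASTPM line and single genes among those the rule names, are not reported here.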

Additional observations from a re-analysis of the deposited data

How the results depend on the processing

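No member passed the call rule in any of the 6 comparisons under any alternative run, and the lowest adjusted p of a member was 0.262. Of 486 member fold changes under alternatives that did not leave out single libraries, 419 kept their sign and 67 did not. The cause was not tested. Scaling to the microglia markers divides each library by a single number, which moves every fold change of a comparison by nearly the same amount. Signs that turned under this scaling reflect that common shift. Scaled to the summed microglia markers, which moved the median of all genes to 0.60 for the averaged serum comparison, the serum log2 fold changes that turned were in WT Tgfb1 0.45, Tgfbr1 0.11, Tgfbr2 0.17, Nrros 0.51 and Ski 0.14, in TASTPM Tgfb1 0.47, Tgfbr1 0.13, Tgfbr2 0.26, Smad3 0.081, Smad7 0.17 and Ski 0.35, and averaged Tgfb1 0.46, Tgfbr1 0.12, Tgfbr2 0.21, Smad3 0.022, Smad7 0.37 and Ski 0.25. Relative to that median, the averaged values of Tgfb1, Tgfbr1, Tgfbr2, Smad3, Smad7 and Ski were all lower, that of Smad3 the most. In the same scaling the interaction turned for Tgfb1 (0.012), Tgfbr1 (0.017) and Smad2 (0.022), the genotype difference under Control ST for Tgfbr1 (0.027), Smad4 (0.070) and Ski (0.11), and that under K/BxN ST for Tgfbr1 (0.044) and Smad4 (0.16). With a covariate for the neutrophil and monocyte markers, values turned in WT for Tgfbr1 (0.18) and Tgfbr2 (0.16), in TASTPM for Tgfbr1 (0.20), Tgfbr2 (0.26), Smad7 (0.16) and Ski (0.18), averaged for Tgfbr1 (0.19), Tgfbr2 (0.21), Smad7 (0.36) and Ski (0.085), and in the interaction for Tgfbr1 (0.021). Without the 4 monocyte-high libraries they turned in WT for Tgfbr1 (0.043) and Tgfbr2 (0.0095), in TASTPM for Tgfb1 (0.27), Tgfbr1 (0.25), Tgfbr2 (0.32), Smad7 (0.15) and Ski (0.40), averaged for Tgfbr1 (0.14), Tgfbr2 (0.17), Smad7 (0.36), Nrros (-0.00021) and Ski (0.10), in the interaction for Tgfb1 (0.63), Tgfbr1 (0.20) and Smad2 (0.098), and between genotypes under K/BxN ST for Tgfb1 (0.40) and Tgfbr1 (0.018). With the sex-linked score as covariate they turned in WT for Smad2 (-0.0022), Smad7 (-0.16) and Nrros (0.074), in the interaction for Tgfbr1 (0.46), Smad2 (0.099), Smad4 (-0.29) and Smad7 (0.13), and between genotypes under Control ST for Smad2 (-0.028) and Smad4 (0.075). edgeR turned Nrros in WT (0.0059), Smad2 in TASTPM (-0.021) and the interaction of Tgfbr1 (0.047), and DESeq2 the last ones as well (-0.023 and 0.058).

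Leaving out 1 library at a time turned 72 of 756 member values. The ranges were, in WT, Tgfb1 -0.20 to 0.095, Smad2 -0.064 to 0.14, Smad7 -0.17 to 0.24 and Nrros -0.13 to 0.13, in TASTPM, Tgfb1 -0.28 to 0.035, Tgfbr2 -0.62 to 0.033, Smad2 -0.29 to 0.26 and Ski -0.55 to 0.15, and averaged, Smad2 -0.13 to 0.15. For the interaction they were Tgfb1 -0.23 to 0.13, Tgfbr1 -0.32 to 0.36, Tgfbr2 -0.24 to 0.42, Smad2 -0.33 to 0.23, Smad3 -0.16 to 0.44, Smad4 -0.22 to 0.25 and Ski -0.14 to 0.56. Between genotypes they were Smad2 -0.20 to 0.36, Smad4 -0.35 to 0.11 and Ski -0.46 to 0.12 under Control ST, and Tgfbr1 -0.50 to 0.18, Smad2 -0.14 to 0.16, Smad7 -0.051 to 0.45 and Ski -0.24 to 0.45 under K/BxN ST. The other member ranges kept their sign, yet many were wide: Tgfbr1 -0.64 to -0.16 and Tgfbr2 -0.59 to -0.10 in WT, Tgfbr1 -0.73 to -0.081 and Smad7 -0.64 to -0.15 in TASTPM, Smad7 -0.67 to -0.17 for the interaction, and Tgfbr2 -0.73 to -0.22 under Control ST and -0.72 to -0.059 under K/BxN ST between genotypes. The value of Tgfbr1 and Smad7 nearest 0 in TASTPM, of Smad7 for the interaction and of Tgfbr2 under K/BxN ST came without TASTPM K/BxN ST library 1, and those in WT without WT K/BxN ST library 1. Wide ranges were also found for Tgfb1 between genotypes under Control ST (-0.32 to -0.094) and Smad4 averaged (0.12 to 0.36). For Nrros they were 0.27 to 0.61 in TASTPM, 0.31 to 0.65 for the interaction and 0.054 to 0.38 between genotypes under K/BxN ST.

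Over all genes, limma called 1 for serum in WT and 0 in each other comparison. DESeq2 called 127 in WT, 16 in TASTPM, 179 averaged, 12 for the interaction and 41 between genotypes under Control ST, while edgeR called 0 in WT. The count in WT was also 0 with a pseudocount of 10, with the covariate for these markers and without the monocyte-high libraries, and that between genotypes under Control ST was 1 with either covariate and without those libraries. Leaving out 1 library gave 0 to 17 genes in WT, 0 to 1 in TASTPM, 0 to 9 averaged, 0 to 3 for the interaction and 0 to 11 between genotypes under Control ST. In WT the 17 came without WT Control ST library 3 and 14 without library 2, the 9 and the 3 without library 2, the 11 without library 3, and in TASTPM the 1 without TASTPM Control ST library 2 or 3. Mean levels per kb moved by less than 1 SD under every alternative run for them. The median r of each member's 3 nearest genes moved without the monocyte-high libraries to 0.811 for Tgfb1, 0.580 for Tgfbr1, 0.941 for Tgfbr2, 0.908 for Smad2, 0.848 for Smad3, 0.862 for Smad4, 0.901 for Smad7, 0.886 for Nrros and 0.859 for Ski. No paired analysis was possible because the groups share no replicate numbers. With 3 or 4 libraries a group, the 95% intervals of the members for serum within a genotype span over 1 log2 unit, so small changes were not detectable.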
